A study of Mus musculus with 7 samples.

Results

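The genes described here are the variable (V) segments of the immunoglobulin light chains, the pieces of the kappa and lambda loci from which the antigen-binding part of each light chain is built. Members were chosen by symbol (Igkv or Iglv, biotype IG_V_gene in GENCODE M21) and by a measured value, a summed count of at least 10 over the 7 libraries. This left 100 of the 49315 rows of the count table, 97 kappa and 3 lambda segments, out of 103 light chain rows of that biotype. Just inside the minimum were Igkv8-26 with 11 and Igkv18-36 with 12 counts in all, and just outside were Igkv1-35 with 7, Igkv20-101-2 with 5 and Igkv1-131 with 1. The counts of 49 members passed 1000 and those of 16 stayed under 100, with a median of 959. At least 1 count was present in every library for 89 members.

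An antibody pairs a heavy chain with a light chain, and a B cell makes its light chain from either the kappa or the lambda locus. In marrow pre-B cells the RAG recombinase joins 1 V segment to a joining (J) segment, and splicing then links the joined exon to a constant (C) exon. A single B cell therefore transcribes mainly 1 light chain V segment, and its daughter cells inherit that choice. Plasma cells, the secreting end stage, hold far more light chain message per cell than B cells or their precursors. In bulk marrow fewer cells of a type and less RNA per cell cannot be told apart.

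RNA of mouse bone marrow was sequenced after a chow diet and hindlimb ischemia, an operation that cuts the blood supply of a leg. The controls were 3 flox libraries, of genotype miR-181a2b2flox/flox, which the sample titles call WT. The other 4 were KO libraries, of genotype miR-181a2b2-/-, which lack that microRNA cluster. The sources used here do not give strain, age, sex, the means of deletion or the animals behind a library. The p-values thus reflect variation among these 7 samples alone, which may be technical. The extraction text speaks of white adipose tissue and the source label of bone marrow. Marrow genes were abundant in every library, with the neutrophil gene S100a8 at 6388 to 11706 CPM (counts per 1000000, scaled by library) and the globin gene Hba-a1 at 8118 to 16964 CPM. Mir181a-2 and Mir181b-2, the deleted microRNA genes, had 0 counts in all 7 libraries, and poly(A) selection does not capture mature microRNAs, so the genotype labels could not be checked. Libraries held 43110251 to 51688514 counts, of which 0.0439% to 0.0936% lay on the members. Flox 1 stood apart in its B lineage, with 11.8 CPM of the B cell receptor gene Cd79a against 87.1 CPM or more in the other 6 libraries.

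A different V segment led different libraries. Igkv1-117 led flox 2 with 21.0% of its light chain V counts (95% Wilson interval 20.6% to 21.3%), and Igkv1-110 led flox 3 with 9.25% (8.87% to 9.65%). Igkv3-4 led 3 of the 4 KO libraries, with 12.0% in KO 1, 25.1% in KO 2 and 15.3% in KO 4. The lambda segment Iglv1 led flox 1 with 11.3% and KO 3 with 13.4%. The intervals cover counting error only, since reads without molecular identifiers are not independent molecules. Averaged over libraries with equal weight, 12 segments passed 50% of the counts. Per kilobase of exon, which allows levels to be compared between segments, the 5 segments with the highest mean were Igkv3-4 at 173, Iglv1 at 127, Igkv1-117 at 111, Igkv1-110 at 102 and Igkv19-93 at 92.4 CPM per kb.

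The leading segments are shown because counting can split reads between near-identical copies. Each line is the last 300 bases, 5′ to 3′, of the coding V exon in the GENCODE M21 transcript on GRCm38. Capitals mark bases that differ from the closest other member, which is the partner shown for the Igkv1 and lambda pairs and Igkv3-3 for Igkv3-4.
Igkv1-117: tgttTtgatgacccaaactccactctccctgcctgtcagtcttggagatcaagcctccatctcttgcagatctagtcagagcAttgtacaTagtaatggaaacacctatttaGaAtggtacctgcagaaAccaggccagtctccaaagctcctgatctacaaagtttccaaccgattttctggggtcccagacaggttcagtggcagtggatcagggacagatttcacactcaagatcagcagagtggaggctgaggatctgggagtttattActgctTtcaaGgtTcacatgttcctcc
Igkv1-110: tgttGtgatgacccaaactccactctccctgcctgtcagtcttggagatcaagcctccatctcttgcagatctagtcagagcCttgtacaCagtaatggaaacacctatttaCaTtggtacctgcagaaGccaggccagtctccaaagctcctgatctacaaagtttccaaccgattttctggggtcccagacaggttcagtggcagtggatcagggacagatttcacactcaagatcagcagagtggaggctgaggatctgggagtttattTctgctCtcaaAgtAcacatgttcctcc
Igkv3-4: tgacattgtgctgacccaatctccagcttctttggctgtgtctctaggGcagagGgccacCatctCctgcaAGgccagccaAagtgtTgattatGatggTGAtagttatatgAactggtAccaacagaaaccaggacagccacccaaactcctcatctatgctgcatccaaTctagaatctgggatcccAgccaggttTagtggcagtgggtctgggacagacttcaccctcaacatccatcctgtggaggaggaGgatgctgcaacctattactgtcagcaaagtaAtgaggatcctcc
Iglv1: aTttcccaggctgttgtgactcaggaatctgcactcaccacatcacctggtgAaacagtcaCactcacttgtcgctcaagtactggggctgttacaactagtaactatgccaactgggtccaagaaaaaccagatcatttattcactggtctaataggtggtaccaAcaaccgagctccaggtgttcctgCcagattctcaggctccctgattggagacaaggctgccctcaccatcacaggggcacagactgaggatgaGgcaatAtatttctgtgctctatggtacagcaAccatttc
Iglv2: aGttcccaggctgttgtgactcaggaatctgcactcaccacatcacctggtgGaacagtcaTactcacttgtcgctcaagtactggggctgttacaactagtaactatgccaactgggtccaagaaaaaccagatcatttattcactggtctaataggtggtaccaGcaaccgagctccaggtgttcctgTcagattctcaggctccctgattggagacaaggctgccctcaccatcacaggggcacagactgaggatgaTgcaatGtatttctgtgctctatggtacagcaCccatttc

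Igkv1-117 (chr6:68121046-68121827, plus strand) and Igkv1-110 (chr6:68270485-68271267, plus strand) differed at 10 of 313 aligned V exon bases. Iglv1 (chr16:19085017-19085500, minus strand) and Iglv2 (chr16:19260401-19260859, minus strand) differed at 9 of 305. Igkv3-4 (chr6:70671788-70672377, plus strand) differed from Igkv3-3 at 19 of 310. Over all 100 members, identity to the closest other member of the same chain had a median of 94.5% and ran from 60.3% for Iglv3 to 99.0% for Igkv5-43 and Igkv5-45. Of the windows of 50 bases in an exon, a median of 21.1% recurred unchanged in another light chain V gene. That share was 45.8% in Igkv1-117, 46.6% in Igkv1-110, 28.0% in Igkv3-4 and 29.7% in both Iglv1 and Iglv2, and it was 0 in 26 members, among them Igkv19-93 and Iglv3. Counts of the members with shared windows are uncertain, because the sources used here do not say how reads with several matches were counted. The share of windows does not measure how large this uncertainty is, and a share of 0 does not exclude it. Spans of 2 members overlapped another annotated gene, Igkv2-137 with Gm42889 and Iglv1 with 2010309G21Rik.

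**Figure D1:**
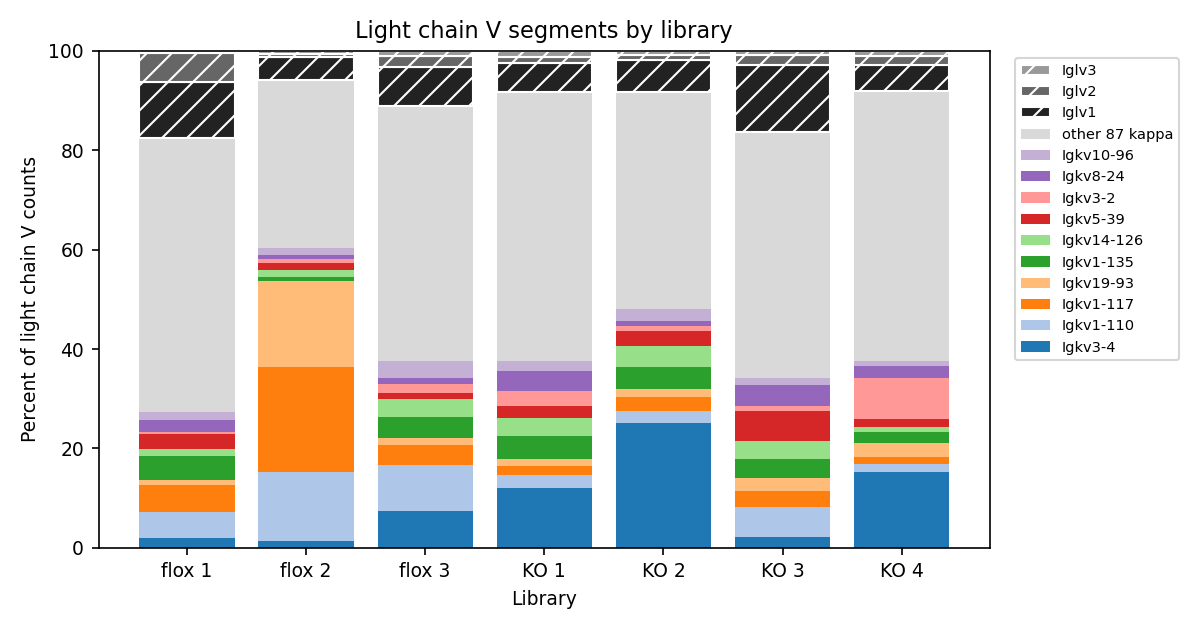
Stacked bars give, for each of the 7 libraries, the percent of light chain V counts held by the 10 kappa segments with the highest mean share, the other 87 kappa segments and the 3 lambda segments (hatched). The bars of flox 2 are filled mostly by Igkv1-117, Igkv19-93 and Igkv1-110, those of KO 1, KO 2 and KO 4 have a wide Igkv3-4 block, and Iglv1 is widest in flox 1 and KO 3.

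Flox 2 stood apart by a small group of segments. Igkv1-117 stood at 40.7, 199 and 18.6 CPM in flox 1, 2 and 3 and at 13.1, 17.7, 14.7 and 10.5 CPM in KO 1 to 4. The flox and KO ranges did not overlap, and flox 2 was 12.3 times the median of the other 6 libraries. Igkv1-110 showed 39.6, 133 and 41.8 CPM in flox and 17.5, 16.2, 26.9 and 11.4 CPM in KO, again without overlap. Igkv19-93 (chr6:68736297-68736780), the sole member of its family here, reached 165 CPM in flox 2 against 6.77 to 22.7 CPM elsewhere, and the other flox libraries were below all KO libraries. Igkv1-122, a further Igkv1 segment, had 1451 counts in flox 2, 56 in flox 1, 223 in flox 3 and 17 to 68 in KO. The 3 segments that each passed 10% of flox 2, Igkv1-117, Igkv19-93 and Igkv1-110, together made up 52.4% of its light chain V counts and 5.81% to 14.8% in the other libraries, a grouping made after their values were seen.

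None of these 4 segments passed in the comparison of KO with flox. The log2 fold changes, KO minus flox, were -2.62 for Igkv1-117 (SE 0.81, edgeR quasi-likelihood adjusted p = 0.272), -1.99 for Igkv1-110 (SE 0.54, edgeR adjusted p = 0.238), -2.11 for Igkv19-93 (SE 1.21, edgeR adjusted p = 0.504) and -3.98 for Igkv1-122 (SE 1.18, edgeR adjusted p = 0.262). Without flox 2 these were -1.06, -1.17, 0.96 and -1.96, so Igkv19-93 changed direction. DESeq2, the other count model, called Igkv1-110 (adjusted p = 0.029) and Igkv1-122 (adjusted p = 0.022).

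Igkv3-4 was high in 3 KO libraries and low in the fourth. Its level was 15.4, 12.5 and 33.1 CPM in flox 1, 2 and 3, and 80.9, 165, 10.1 and 118 CPM in KO 1 to 4. KO 3 was the lowest of all 7 libraries, so the groups overlapped. The group means were 20.3 ± 11.2 CPM (SD, n = 3) and 93.4 ± 65.3 CPM (SD, n = 4), and the log2 fold change of 2.20 (SE 0.94, 95% interval -0.11 to 4.51) did not pass its test (edgeR adjusted p = 0.373). Some other segments of its family peaked in a single KO library. Igkv3-2 had 62.6 CPM in KO 4, 20.5 CPM in KO 1 and 3.78 to 8.06 CPM in the rest. Igkv3-10 had 38.3 CPM in KO 2 and 1.31 to 8.17 CPM in the rest. Igkv3-7 had 46.1 CPM in KO 4 and 2.75 to 8.37 CPM in the rest. Not all did so, and Igkv3-5 had 12.8 CPM in KO 2 beside 10.9 CPM in flox 1. The 9 members of family Igkv3 held 5.89%, 4.39% and 12.3% of light chain V counts in flox and 19.2%, 36.4%, 8.09% and 33.3% in KO. With Igkv3-4 taken out, shares of the remaining counts were 3.95%, 3.11% and 5.38% against 8.13%, 15.1%, 5.99% and 21.2%. Every KO share then lay above every flox share, a pattern seen after the fact and not tested, with KO 3 close to flox 3. The order held for shares only, which also depend on segments outside the family. In summed CPM of these members KO 3 lay below flox 1 and flox 2.

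Igkv9-124 (chr6:67942074-67942540, minus strand) was the member with the lowest p, at a low level. Its counts were 80 in flox 1, 37 in flox 2 and 56 in flox 3, and 162, 145, 204 and 117 in KO 1 to 4, or 1.59, 0.76 and 1.20 CPM against 3.42, 3.09, 4.36 and 2.66 CPM. All 4 KO libraries were above all 3 flox libraries. The log2 fold change of 1.51 (SE 0.27, 95% interval 0.90 to 2.13) missed the threshold (unadjusted p = 0.000278, edgeR adjusted p = 0.0941). It passed with DESeq2 (adjusted p = 1.59e-05) and with edgeR when all genes with any count were tested (adjusted p = 0.00216). Its closest member was 96.0% identical, and 34.9% of its 50-base windows recurred in another V gene.

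**Figure D2:**
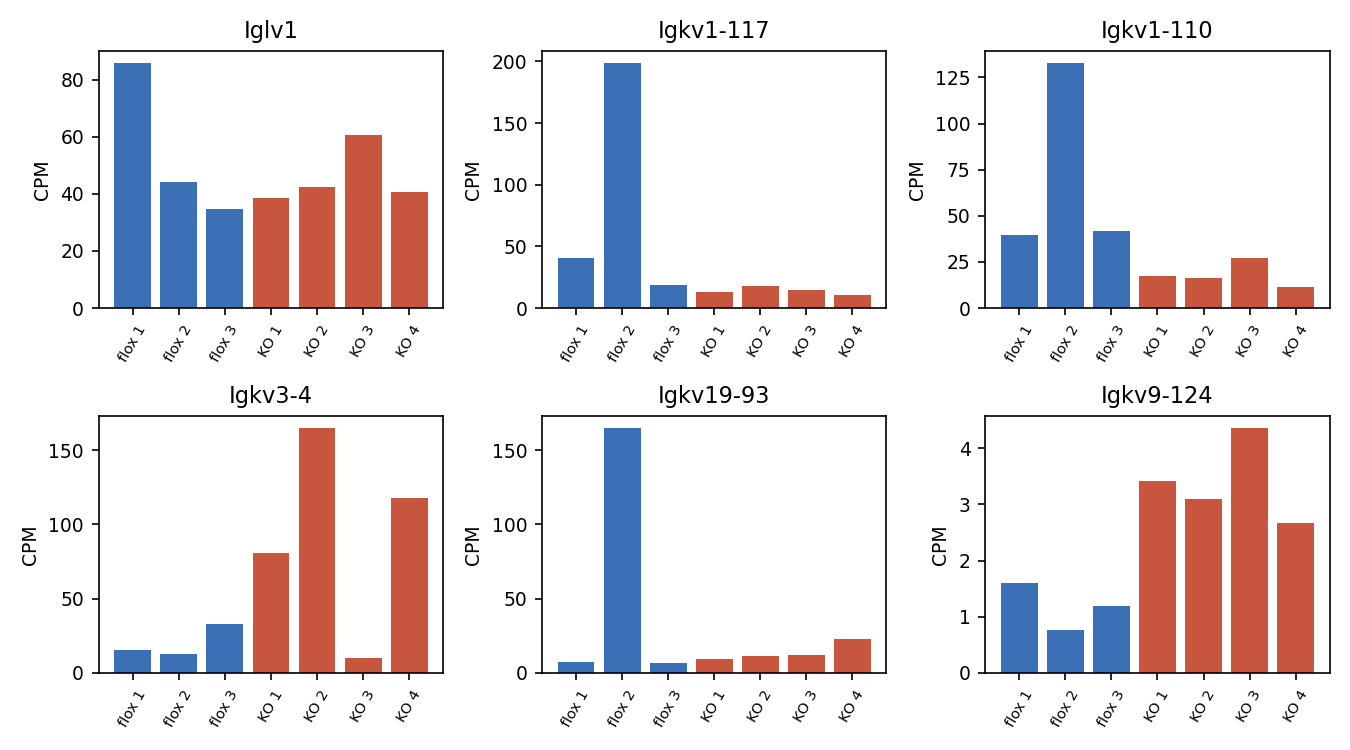
Bars give CPM of 6 segments in each library (blue flox, red KO, each panel with its own axis from 0). Igkv1-117, Igkv1-110 and Igkv19-93 peak in flox 2, Igkv3-4 is high in KO 1, KO 2 and KO 4 and lowest in KO 3, Iglv1 peaks in flox 1, and Igkv9-124 is higher in each KO library than in any flox library.

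Across the members, 85 passed the filter on low counts, 82 kappa and 3 lambda, and 0 of them passed the edgeR test at an adjusted p of 0.05, where 0.145% of all 17920 tested genes did. Of the 85, 5 higher and 4 lower in KO had an unadjusted edgeR p under 0.05, where 14.1% of all tested genes did. DESeq2 called 5 members, 2 higher and 3 lower, against 2.04% of all tested genes, and gave no adjusted p for 6. Besides the 3 already named these were Igkv1-132 (2.57, DESeq2 adjusted p = 0.0373) and Igkv4-58 (-2.08, DESeq2 adjusted p = 0.0374). CPM ranges of flox and KO did not overlap for 3 of the 85 (Igkv9-124 higher, Igkv1-117 and Igkv1-110 lower in KO), where 13.6% of all tested genes did not overlap. Fitted changes were above 0 for 45 and below 0 for 40 members, with a median of 0.11 against -0.0080 over all tested genes. Without flox 1 the median was 0.31, and without KO 4 it was -0.16.

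Of the remaining 6 segments with the lowest p, 5 had under 1000 counts in all, and Igkv3-10 had 2913. Among those higher in KO, Igkv1-132 gave counts of 6, 4 and 14 in flox against 58, 91, 29 and 6 in KO, so KO 4 matched flox 1. Igkv6-14 gave 1.07 and Igkv13-85 gave 0.59 on the log2 scale, with edgeR adjusted p of 0.346 and 0.355, and Igkv3-10 gave 2.53 with 0.352. Without KO 2 Igkv3-10 gave 1.25, and without KO 1 Igkv6-14 gave 0.67. Among those lower in KO, Igkv2-112 had 545 counts in flox 1 and 27 to 75 in the other 6 libraries, and its log2 fold change of -2.11 was -0.10 without flox 1. Igkv4-58 gave counts of 188, 111 and 21 in flox against 8 to 36 in KO. In each of these 6 segments the groups overlapped.

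Members varied widely between libraries of 1 group. The SD of log2 CPM within groups had a median of 1.07 over the 85 tested segments (10th to 90th percentile 0.54 to 1.57). Over all tested genes the median was 0.19, and over 13088 other genes in the same range of mean log2 CPM it was 0.25 (10th to 90th percentile 0.092 to 0.57). Among the members above 0 in all libraries, the highest library exceeded the lowest by a median of 7.84 times, from 1.82 to 113 times. In 34 of the 85 tested members 1 library was over 4 times the median of the other 6. The library with the highest CPM was flox 1 for 22 members, flox 2 for 18, flox 3 for 2, and KO 1 to KO 4 for 22, 12, 9 and 15.

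**Figure D3:**
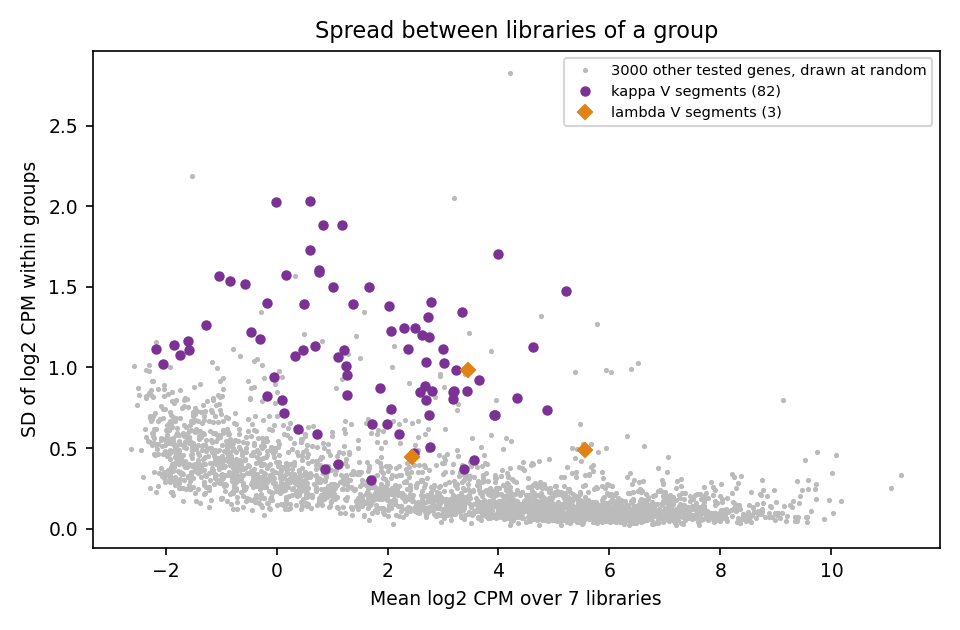
Each point is a tested gene, with its mean log2 CPM over the 7 libraries and the SD of its log2 CPM within groups. The kappa (circles) and lambda (diamonds) segments lie mostly above the grey points of 3000 other tested genes, with a median SD of 1.07 against 0.25 in the same range of levels.

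The frequent segments Igkv10-96, Igkv14-126, Igkv5-39, Igkv1-135 and Igkv8-24 had less spread than the median member. Their SD of log2 CPM within groups ran from 0.43 (Igkv10-96) to 0.92 (Igkv8-24). All but Igkv10-96 were still above 0.57, the 90th percentile of other genes in the same range of levels. Igkv10-96 stood at 13.5 ± 1.47 CPM in flox (SD, n = 3) and 11.2 ± 4.07 CPM in KO (SD, n = 4). Igkv14-126 ran from 7.26 to 28.4 CPM and Igkv5-39 from 5.98 to 27.1 CPM, and in both the groups overlapped. Igkv1-135 had 37.3, 7.64 and 18.4 CPM in flox and 30.9, 29.0, 17.7 and 16.7 CPM in KO, and Igkv8-24 ran from 5.38 to 28.2 CPM. Their log2 fold changes lay between -0.27 (Igkv10-96) and 0.79 (Igkv8-24), with edgeR adjusted p of 0.653 to 0.941. Igkv4-59, chosen after its values were seen, was the second segment of KO 1 with 6.41% of its light chain V counts.

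Despite these peaks the rank order of kappa segments was alike in all libraries. Across the 97 kappa segments, Spearman's rho between 2 libraries had a median of 0.79 within flox (0.72 to 0.83, 3 pairs), 0.81 within KO (0.75 to 0.87, 6 pairs) and 0.80 between groups (0.71 to 0.89, 12 pairs). Segments share locus, length range and library depth in these values, which are descriptions without a test. The part of the kappa counts that 2 libraries held in common was 46.8% to 65.5% within flox, 54.9% to 68.9% within KO and 37.6% to 73.3% between groups. The 6 pairs that included flox 2 had the lowest values of all, from 37.6% to 50.3%.

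The evenness of the kappa repertoire did not separate the groups. The effective number of segments, the exponential of the Shannon entropy of the shares, was 47.1, 19.3 and 44.3 in flox and 44.2, 28.0, 50.02 and 36.4 in KO. Flox 2 was the least even library and KO 3 the most even. Each library's own 10 highest kappa segments held 43.5%, 73.0% and 48.6% in flox and 47.7%, 60.3%, 43.2% and 51.998% in KO. Exact two-sided permutation tests gave p = 0.771 and p = 0.629, where the smallest possible p is 0.0286 (0.8 for both, adjusted over the 9 values per library tested). Without flox 2 both differences changed direction, from 2.80 to -6.01 segments and from -4.22 to 4.74 percentage points, and without KO 3 the first was -0.66 segments.

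Kappa and lambda were then compared. Kappa V segments summed to 628, 891 and 402 CPM in flox 1, 2 and 3 and to 619, 603, 379 and 706 CPM in KO 1 to 4. Flox held both the highest value and the second lowest, and the means were 641 ± 245 CPM (SD, n = 3) and 577 ± 139 CPM (SD, n = 4). The exact permutation test, run on log2 CPM, gave p = 0.8. Lambda V segments summed to 134, 56.2 and 49.8 CPM in flox and 55.4, 54.0, 73.8 and 62.0 CPM in KO (exact permutation p = 0.743). Flox 1 was the highest, and flox 2 and flox 3 lay near the KO values. The log2 difference, KO minus flox, was -0.11 for kappa and -0.24 for lambda. It became 0.16 without flox 2 and 0.075 without KO 3 for kappa, and 0.20 without flox 1 for lambda.

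The lambda share of light chain V counts was 17.6%, 5.93% and 11.0% in flox 1, 2 and 3 and 8.22%, 8.23%, 16.3% and 8.08% in KO 1 to 4. Counting error was small beside this, with 95% Wilson intervals of at most 0.497 percentage points to either side. Flox 1 and KO 3 were high, flox 2 was low, and KO 1, KO 2 and KO 4 were nearly equal. The group means were 11.5% ± 5.83 (SD, n = 3) and 10.2% ± 4.06 (SD, n = 4), a difference of -1.30 percentage points (exact permutation p = 0.629, 0.8 adjusted over 9). Without flox 1 the difference was 1.73 percentage points. Read from the constant exons instead, Iglc1 to Iglc3 against Igkc, the lambda share was 14.7%, 7.24% and 13.1% in flox and 11.1%, 9.94%, 16.1% and 9.33% in KO, and flox 1 and KO 3 were again the highest.

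**Figure D4:**
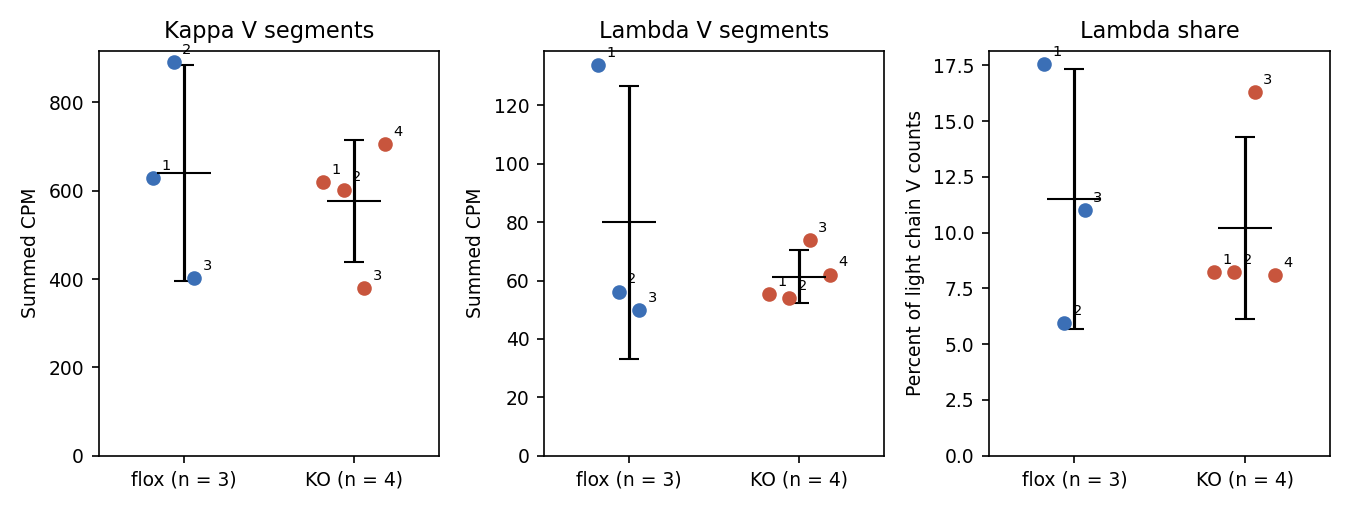
Points give each library, numbered by replicate, with the group mean and SD as bars, for summed kappa CPM, summed lambda CPM and the lambda percent of light chain V counts (axes from 0). The groups overlap in all 3 panels, flox 2 is the highest in kappa and lowest in lambda share, and flox 1 is the highest in lambda.

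The 3 lambda segments contributed unequally. Iglv1 stood at 85.9, 44.1 and 34.7 CPM in flox and 38.7, 42.4, 60.7 and 40.6 CPM in KO, and made up 64.2% to 82.2% of lambda V counts. Iglv2 stood at 44.6 CPM in flox 1 and at 6.33 to 14.1 CPM in the other 6 libraries, which gave it 33.4% of the lambda V counts of flox 1 and 11.7% to 22.7% elsewhere. Iglv3 (chr16:19241207-19241690, minus strand), whose V exon is 60.3% identical to that of Iglv1, ran from 3.23 CPM in flox 1 to 8.92 CPM in KO 1. It held 2.41% of lambda V counts in flox 1 and 5.76% to 16.1% elsewhere. The log2 fold changes were -0.27 (SE 0.33) for Iglv1, -1.14 (SE 0.71) for Iglv2 and 0.51 (SE 0.28) for Iglv3, with edgeR adjusted p of 0.795, 0.544 and 0.443. Without flox 1, Iglv1 gave 0.20, Iglv2 0.14 and Iglv3 0.31, and without KO 1 Iglv3 gave 0.32.

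V segments were set against the constant exons to which they are spliced. Igkc, the single kappa constant exon, stood at 752, 1084 and 536 CPM in flox and 792, 766, 506 and 898 CPM in KO. The difference was -0.095 on the log2 scale (SE 0.27, edgeR adjusted p = 0.923). Kappa V counts per Igkc count were 0.835, 0.823 and 0.750 in flox and 0.782, 0.787, 0.750 and 0.786 in KO, a narrow range while Igkc itself varied (exact permutation p = 0.286). Lambda V counts per count of Iglc1, Iglc2 and Iglc3 were 1.03, 0.665 and 0.615 in flox and 0.561, 0.639, 0.761 and 0.672 in KO (exact permutation p = 0.543), with flox 1 the highest. Iglv1, which joins mainly to the clusters of Iglc1 and Iglc3, had 1.09 to 1.31 counts per Iglc1 count in all 7 libraries. Iglv2, which joins to that of Iglc2, had 0.799 counts per Iglc2 count in flox 1 and 0.206 to 0.374 in the others. Reads of the closely similar Iglc2 and Iglc3 may be split by the counting.

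Along the kappa locus the member segments lie 18.4 to 3166 kb from Igkj1. On the 32 segments nearest to J, up to 779 kb away, libraries had 32.0%, 15.3% and 32.0% of their kappa V counts in flox and 41.0%, 50.1%, 29.9% and 53.1% in KO. KO 1, KO 2 and KO 4 were above all flox libraries, and KO 3 was below flox 1 and flox 3. The difference was 17.1 percentage points (exact permutation p = 0.114, 0.643 adjusted over 9). Igkv3-4, which lies 50.2 kb from Igkj1, is among these 32. So are all other members of family Igkv3, at 18.4 to 204 kb, so this share and that of the family are not separate results. With Igkv3-4 alone taken out, the shares were 30.2%, 14.1% and 25.9% in flox and 32.2%, 31.3%, 28.0% and 43.7% in KO. Without the highest segment of every library the difference was 6.77 percentage points. The 32 segments farthest from J, from 1887 kb, which include Igkv1-117, Igkv1-110 and Igkv19-93, had 43.5%, 73.2% and 48.3% in flox and 33.2%, 34.2%, 43.7% and 24.3% in KO. KO 3 again lay with the flox libraries, nearly equal to flox 1.

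Segments in the orientation of Igkc join by deletion of the DNA between, and segments in the opposite orientation by inversion. Of the 97 kappa members, 60 (61.9%) were in the opposite orientation. They held 54.9%, 39.4% and 41.5% of kappa V counts in flox and 49.1%, 28.8%, 53.1% and 47.5% in KO. All 7 libraries were below the 61.9% that equal use of members would give, and the groups overlapped.

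**Figure D5:**
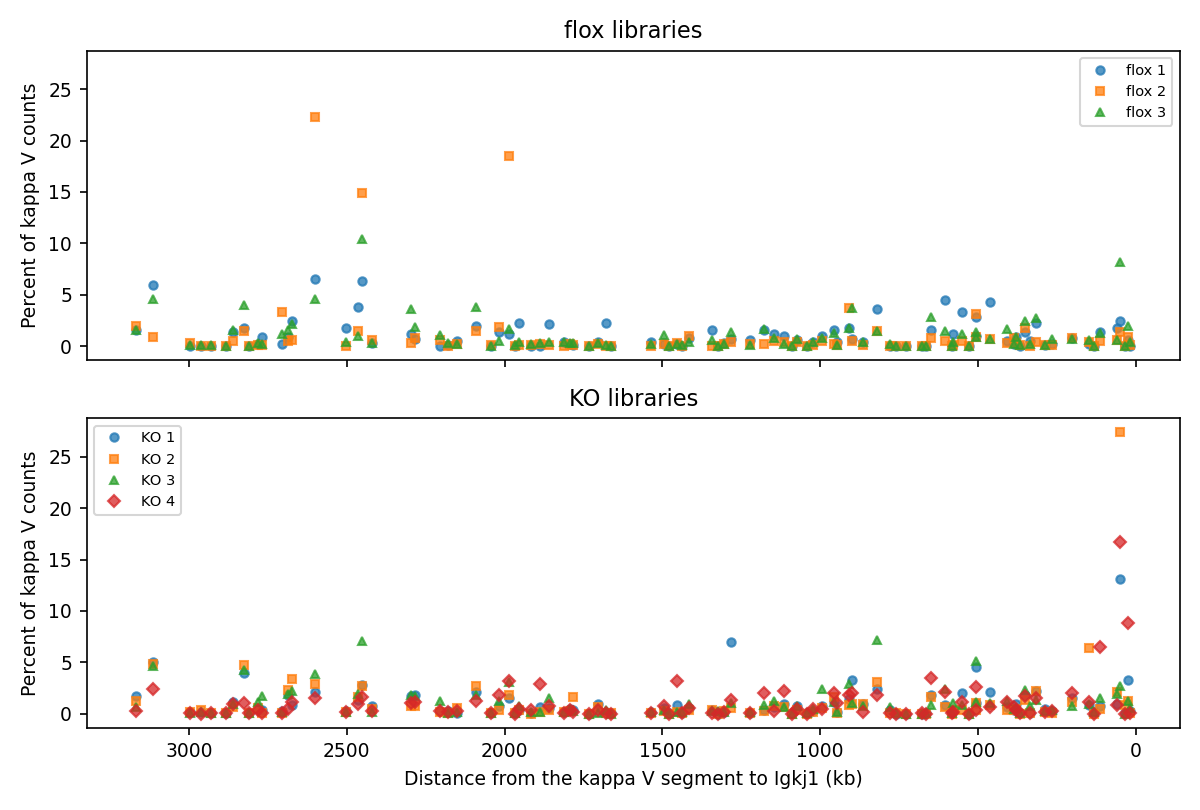
Points give the percent of a library's kappa V counts on each of the 97 kappa segments, by distance to Igkj1 in kb (nearest at the right), for flox (top) and KO (bottom). The 3 tallest points far from J belong to flox 2, and the 3 tallest points near J to Igkv3-4 in KO 1, KO 2 and KO 4.

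Genes that make or assemble light chains gave the setting of these values. In the lists of recombination, surrogate light chain, mature B cell, plasma cell and light chain constant and joining genes, 0 genes passed the edgeR test over all genes, where 0.145% of all tested genes did. Of 13 recombination genes and their regulators, all 13 had fitted changes above 0, with a median of 1.01. Flox 1 was the lowest library in each of them. Summed, they stood at 899, 1306 and 1598 CPM in flox and 1978, 1580, 1879 and 1749 CPM in KO, so flox 3 was above KO 2. Rag2, a subunit of the recombinase, gave 1.39 (SE 0.56) and Il7r, the receptor of the precursor growth signal, 1.18. The transcription factors Irf4 and Tcf3 gave 1.08 and 0.48, and edgeR adjusted p of these 4 genes was 0.241 to 0.373. In the surrogate light chain list, some proteins stand in for a light chain before it is made. The list had a median of 1.36 over its 4 tested members, Vpreb1, Vpreb2, Vpreb3 and Igll1. Summed, it stood at 5.08, 40.0 and 71.5 CPM in flox and 105, 83.7, 125 and 78.3 CPM in KO, with flox 1 far below the rest.

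Of 10 mature B cell genes, all 10 had fitted changes above 0 (median 0.77). Flox 1 was the lowest library in each of them. Flox 3 lay within the KO range in some, such as Ms4a1 (57.0 CPM against 52.5 to 92.8 CPM), and below it in others. The lowest p were those of the antigen presentation genes H2-Aa (0.44) and Cd74 (0.48), with edgeR adjusted p of 0.207 and 0.284. Bank1 and Cd79a, both of B cell receptor signalling, gave 0.59 and 1.04. Of 11 plasma cell genes, 5 had fitted changes above 0 and 6 below, with a median of -0.054. Among the 4 with the lowest p, Irf4, which is also in the recombination list, gave 1.08, Xbp1, the secretory factor, -0.25, the folding enzyme gene Fkbp11 -0.83, and Igha, the constant region of IgA, -1.23, at 1934 CPM in flox 1 and 325 to 707 CPM in the other libraries. The J chain gene Jchain, which links secreted IgA and IgM, stood at 351, 269 and 164 CPM in flox and 224, 216, 129 and 253 CPM in KO. Flox 1 was highest there, and KO 3 and flox 3 were lowest, as they were in summed kappa CPM.

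Light chain V CPM were also divided by Cd79a CPM, a measure of B lineage message. The ratio was 64.7, 10.9 and 3.59 in flox and 3.9997, 4.80, 2.78 and 5.10 in KO. Flox 1 and flox 2 were above all KO libraries, and flox 3 was among them. On the log2 scale the difference was -1.74 (exact permutation p = 0.143, 0.643 adjusted over 9), and without flox 1 it was -0.62. Flox 1 thus had the lowest precursor and B cell messages beside the highest lambda V level.

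The J segments, to which V segments join, are counted as genes of their own. Igkj1 to Igkj5 summed to 196, 570 and 446 counts in flox 1, 2 and 3, against 982, 752, 727 and 695 in KO 1 to 4. In these raw counts every KO library was above every flox library. CPM ranges of the groups did not overlap for 13.6% of all tested genes. Per 1000 Igkc counts the Igkj sum was 5.19, 10.8 and 17.8 in flox and 26.1, 20.9, 30.7 and 17.6 in KO, where KO 4 was just below flox 3. Igkj5, Igkj2 and Igkj4 gave log2 fold changes of 1.13, 1.11 and 1.04 and the lambda segment Iglj3 1.32, with edgeR adjusted p of 0.208 to 0.286. In the list of 11 constant and joining genes 10 were tested and 7 had fitted changes above 0. Iglc1, Iglc2 and Iglc3 gave -0.11, -0.28 and 0.35.

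Genes of other cells were listed to place these values. T cell genes summed to 59.1 to 63.5 CPM in flox and 58.4 to 78.0 CPM in KO, and 0 of 6 passed the edgeR test. Neutrophil genes had 0 of 6 passing with 6 fitted changes below 0, and erythroid genes 0 of 6 passing with 6 above 0. Genes of intestinal epithelium rose in KO in 8 of 8 cases by the edgeR test, which 0.145% of all tested genes passed. Summed, they stood at 34.3 to 36.3 CPM in flox and 81.2 to 89.0 CPM in KO, with none of the 8 at 0. The lists were chosen with earlier results of these data known, so 8 of 8 is not an independent finding. The part of these intestinal genes and of the low precursor and mature B cell messages of flox 1 in the light chain values was not tested.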

How the data were processed

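Poly(A)-selected RNA of 7 bone marrow libraries (3 flox, 4 KO) was measured as raw counts per Ensembl gene, which the authors deposited as 1 table. The submitters' processing notes name Trimmomatic 0.36 (trimming), STAR 2.5.2b (alignment), Subread 1.5.2 with featureCounts (counting) and the build GRCm38. The sources used here do not give the annotation release, the strand setting or the handling of reads with several matches. Light chain reads cross a V to J junction that the germline genome lacks, so alignment and counting can lose part of them. Columns were matched to samples by the library code in the labels, with 0 columns not mapped. GENCODE M21 names matched 48970 of 49315 gene IDs.

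Counts were filtered with filterByExpr (minimum count 10), scaled by TMM and fitted over all genes with edgeR 4.0.16 (robust glmQLFit, glmQLFTest, two-sided) in R 4.3.3, p-values adjusted by Benjamini-Hochberg and called under 0.05. CPM was taken on TMM-scaled sizes, with a prior count of 2 for log2 CPM. Values with 1 number per library were compared by exact two-sided permutation over 35 splits, adjusted over 9 such values. Summed CPM and the ratios to constant exons and Cd79a were tested on the log2 scale, the other values as printed. V exon sequences were aligned with Biopython 1.88. The edgeR script was tested on simulated data. Alternatives were DESeq2 1.42.0, limma-voom (limma 3.58.1), other scalings and filters, a replicate block and leaving out each library. As a check for a library deposited more than once, chi-square per degree of freedom between libraries of a group was 21.2 to 101, so none was counted as a repeat of another.

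Named segments were the 10 kappa members with the highest mean share, all lambda members, the leader of each library, the 5 lowest p in each direction, and 4 genes per list by lowest p with Igkc, Iglc1, Iglc2, Iglc3 and Cd79a. Others were named after their values were seen. The members and lists were chosen with earlier results of these data known. Promoters and recombination signals were not analysed here.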

Additional observations from a re-analysis of the deposited data

Results flagged for a closer look

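Among 30 results screened, 21 segments and 9 values per library, 5 had 1 KO library far from the other 3 by Dixon's test for 4 values, which flags about 1 group in 20 by chance. Groups of 3, and so flox, were not screened. KO 3 was far from the others in 3 of them. Its Iglv1 level was 60.7 CPM against 38.7 to 42.4 CPM, its lambda share of light chain V counts was 16.3% against 8.08% to 8.23%, and its kappa V counts per Igkc count were 0.750 against 0.782 to 0.787. KO 4 stood at 22.7 CPM of Igkv19-93 against 9.68 to 11.8 CPM, and KO 2 at 38.3 CPM of Igkv3-10 against 3.44 to 8.17 CPM.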

How the results depend on the processing

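No light chain V segment was called with edgeR under RLE scaling, library size alone, a minimum count of 50, non-robust dispersion, the replicate block or any left-out library, nor with limma-voom. DESeq2 called 5 and edgeR on all genes with any count called 1 (Igkv9-124). Over all genes the count of 26 became 365 with DESeq2, 112 with any count, 16 with non-robust dispersion and 4 with the replicate block, and 2 to 14 when 1 library was left out. Same-numbered libraries had correlations of deviations of -0.022, 0.077 and 0.023. The KO library with the highest correlation was KO 2 for flox 2 and KO 3 for flox 1 and flox 3. Such values cannot decide whether the numbers pair the libraries, which the labels do not say. The block took the median of members from 0.11 to -0.054 and changed no call of a member. Kappa V counts per Igkc count gave 0.046 in place of -0.047 (log2) without the highest segment of each library, the cause was not tested. Leaving out 1 library gave ranges of -4.08 to 1.73 percentage points for the lambda share, -0.41 to 0.16 for kappa and -0.51 to 0.20 for lambda CPM (log2), -0.34 to 0.033 for lambda V per Iglc (log2), -6.01 to 7.90 for the effective number and -9.97 to 4.74 percentage points for the top 10 share. The causes were not tested. Among named segments, leaving out 1 library gave -2.65 to 0.96 for Igkv19-93, -0.22 to 0.85 for Igkv1-135 (-0.0020 without KO 1), -0.51 to 0.20 for Iglv1 and -1.53 to 0.14 for Iglv2. With 6 libraries the smallest exact p is over 0.05, so such runs show direction only.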
